A study of Mus musculus with 4 samples.

Results

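The 33 genes described here are p53, its negative regulator Mdm2, genes that p53 activates, and the regulators of apoptosis: death receptors, the BCL2 family, initiator caspases and inhibitors of apoptosis. They were chosen by gene symbol, through the RefSeq accession of each probe, out of 18217 genes that the arrays name in this way. All 33 were on the arrays, with 56 probes, and 31 of them were tested among 12388 genes. RNA came from microvascular smooth muscle cells of male Rap1a knockout mice of the C57BL6 strain. Cells transduced with a shuttle vector named RapCA, a name the labels do not spell out, were set against cells transduced with the empty shuttle vector, so all groups shared the knockout and the exposure to virus. Cultures kept in 10% serum received virus overnight without serum when plated, and then had 48 h of recovery in 0.5% serum. The 4 two-colour arrays, all on 1 slide, each held an RNA labelled RapCA (Cy3) and an RNA labelled vector (Cy5). The labels call the arrays biological replicates and do not say whether cultures or animals were separate, so p-values measure the spread between these arrays, which may be technical. The series title names the comparison a knockout against a rescue. The age of the mice is not given in the sources used here.

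The p53 protein is a transcription factor held at a low level by Mdm2, a ubiquitin ligase whose gene p53 itself activates. After DNA damage or other stress p53 induces genes that stop the cell cycle, limit growth signalling and promote cell death. In the mitochondrial pathway, BH3-only proteins such as Noxa (Pmaip1), Puma (Bbc3) and Bim (Bcl2l11) restrain the survival proteins Bcl2, Bcl-xL (Bcl2l1) and Mcl1, which frees Bax and Bak to open the outer mitochondrial membrane. Cytochrome c then assembles Apaf1 and caspase-9 into the apoptosome. Death receptors such as Fas act through caspase-8 and Bid, and inhibitors of apoptosis such as Xiap bind caspases or receptor complexes.

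A p53 response element is built from decamers, and an exact match to the p53 decamer consensus was looked for on both strands in RefSeq promoters (build GRCm38.p6, 250 bases before to 50 bases after each start). Of the 33 genes, 27 had a promoter in the table, and 9 of these 27 (33.3%) held the decamer in at least 1 promoter, against 8.56% of 9924 tested genes with a promoter. The genes were chosen in part as known p53 targets, so this share is a description. The promoter sequences are shown because they set genes with a like element beside ratios of both signs. Capitals mark the decamer, the lower-case bases flank it, each is written 5′ to 3′ on the strand of the gene, and each ends at or before the start.
Ei24 (chr9:36797335-36797364, minus strand): ccagctgccccgtgcggcccGGGCATGCCC
Sesn1 (chr10:41887246-41887295, plus strand): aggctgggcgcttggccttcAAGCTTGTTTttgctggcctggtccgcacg
Bax (chr7:45467070-45467119, minus strand): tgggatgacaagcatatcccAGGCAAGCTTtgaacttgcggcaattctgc
Ccng1 (chr11:40755442-40755491, minus strand): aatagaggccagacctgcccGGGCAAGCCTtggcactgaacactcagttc
Aen (chr7:78895917-78895966, plus strand): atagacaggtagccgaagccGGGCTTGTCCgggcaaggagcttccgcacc
Mdm2 (chr10:117710915-117710964, minus strand): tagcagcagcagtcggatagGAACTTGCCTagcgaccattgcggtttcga
Gadd45a (chr6:67037418-67037467, minus strand): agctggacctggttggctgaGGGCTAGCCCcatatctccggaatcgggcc
Trp53 (chr11:69580264-69580313, plus strand): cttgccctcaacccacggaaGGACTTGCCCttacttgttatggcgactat
The decamer of Ei24 ended 1 base before the start, that of Gadd45a 31 bases, that of Trp53 66 bases and that of Mdm2 177 bases before it. The match in Birc2 lay after the start and is not shown. Among the 9 genes with the decamer, 2 were higher, 3 were lower and 4 did not pass the test described below, which 53.9% of all tested genes passed, so the count is near that of genes in general. A looser paired element, 2 decamers with the core C and G kept, at most 13 bases between them and at most 3 other mismatches, was found in promoters of 10 of the 27 genes (37.0%), against 17.79% of tested genes. The pair with the fewest mismatches, 1, was that of Ccng1. A match describes letters and says nothing of binding.

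The gene named as deleted in the labels was checked first. Rap1a had normalized log2 intensities of 11.57, 11.74, 11.87 and 11.52 in the channel labelled RapCA on replicates 1 to 4, against 12.04, 12.77, 13.18 and 12.99 in the channel labelled vector. The channels did not overlap, and the log2 ratio was -1.06 ± 0.44 (SD, n = 4; limma adjusted p = 0.00204). The probe was above background on all 4 arrays in both channels, although the labels name the cells as knockout. A lower level in the RapCA channel goes against the rescue named in the title only if RapCA restores Rap1a. The labels do not say so, and where on the gene the probe lies is not known here. No array has the dyes exchanged, so dye and condition cannot be told apart. Channels are therefore named as labelled, and every direction below rests on the recorded dyes. Of 8 smooth muscle markers 7 were above background on all arrays in each channel. Of these 7, 4 were called higher in the RapCA channel (Tagln 4.37-fold, Myl9 2.88-fold, Lmod1 2.37-fold and Acta2 1.45-fold) and none lower. Among all genes 28.9% were called higher and 24.9% lower. The summed log2 level of the smooth muscle markers was 18.72 to 18.83 in the RapCA channel and 17.50 to 17.84 in the vector channel. The intermediate filament gene Des was not above background, and Myh11, the smooth muscle myosin chain, was above it at a low level of 6.62 in the RapCA channel and 6.49 in the vector channel. Of 6 endothelial markers 2 in the RapCA channel and 1 in the vector channel were above background on all arrays. Kdr was so in both, with a lower call at -0.75 ± 0.40. Tek was so in the RapCA channel alone, with a higher call at 1.16 ± 0.23. Tek entered the test through that channel, which favoured this direction. Pecam1, Cdh5, Emcn and Tie1 were above background on no array. Of 5 matched leukocyte markers Cd14 and Csf1r were above background in both channels and did not pass the test, and Ptprc, Adgre1 and Itgam were above it on no array. For Csf1r this held for its brightest probe alone, at a low level of 6.59 in the RapCA channel and 6.57 in the vector channel. Its other probes were above background on no array. The epithelial marker Krt8 was above background on all arrays in the vector channel and on none in the RapCA channel, and Epcam and Cdh1 on none in either. Krt18 was above it on 3 of 4 arrays in the vector channel and on none in the RapCA channel, and was not tested. Fibroblast markers were above background at 5 of 6 genes, 4 of them called higher, against 28.9% of all genes. Their summed log2 level was 15.68 to 15.94 in the RapCA channel and 12.89 to 13.42 in the vector channel. The part of any of these markers in the results was not tested. Fewer cells of a type and less RNA per cell cannot be told apart in bulk RNA.

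Replicate 1 stood apart from the other arrays, and for these genes the distance lay in the vector channel. The median distance of replicate 1 from the mean of the other 3 arrays, over the 31 tested genes, was 0.14 log2 units in the RapCA channel and 0.76 in the vector channel. The same distances over all 12388 genes were 0.16 in the RapCA channel and 0.55 in the vector channel. Before normalization the vector channel of replicate 1 had a median signal above local background of 37, against 75.5 to 83.5 on the other arrays. There 51.3% of probes were well above background, against 60.1% to 61.9% on the others. The part of this dimmer channel in the distances was not tested. Across the 31 genes, which are not independent replicates, the correlation of ratios was 0.66 to 0.80 between replicate 1 and another array, and 0.87 to 0.96 among replicates 2 to 4. The ratio of replicate 1 had the opposite sign to the other 3, which shared a sign, at 8 of 31 genes (Mdm2, Ccng1, Btg2, Phlda3, Casp8, Bax, Bak1 and Bcl2l11), against 21.4% of all genes. For the 6 genes that gain a call without replicate 1, both values are given below. Other ratios moved without gaining a call: without replicate 1 Ccng1 had -0.37, Bcl2 -0.13, Birc2 0.10, Bbc3 0.20 and Tnfrsf10b -0.11, and none of these 5 passed with or without it.

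**Figure D1:**
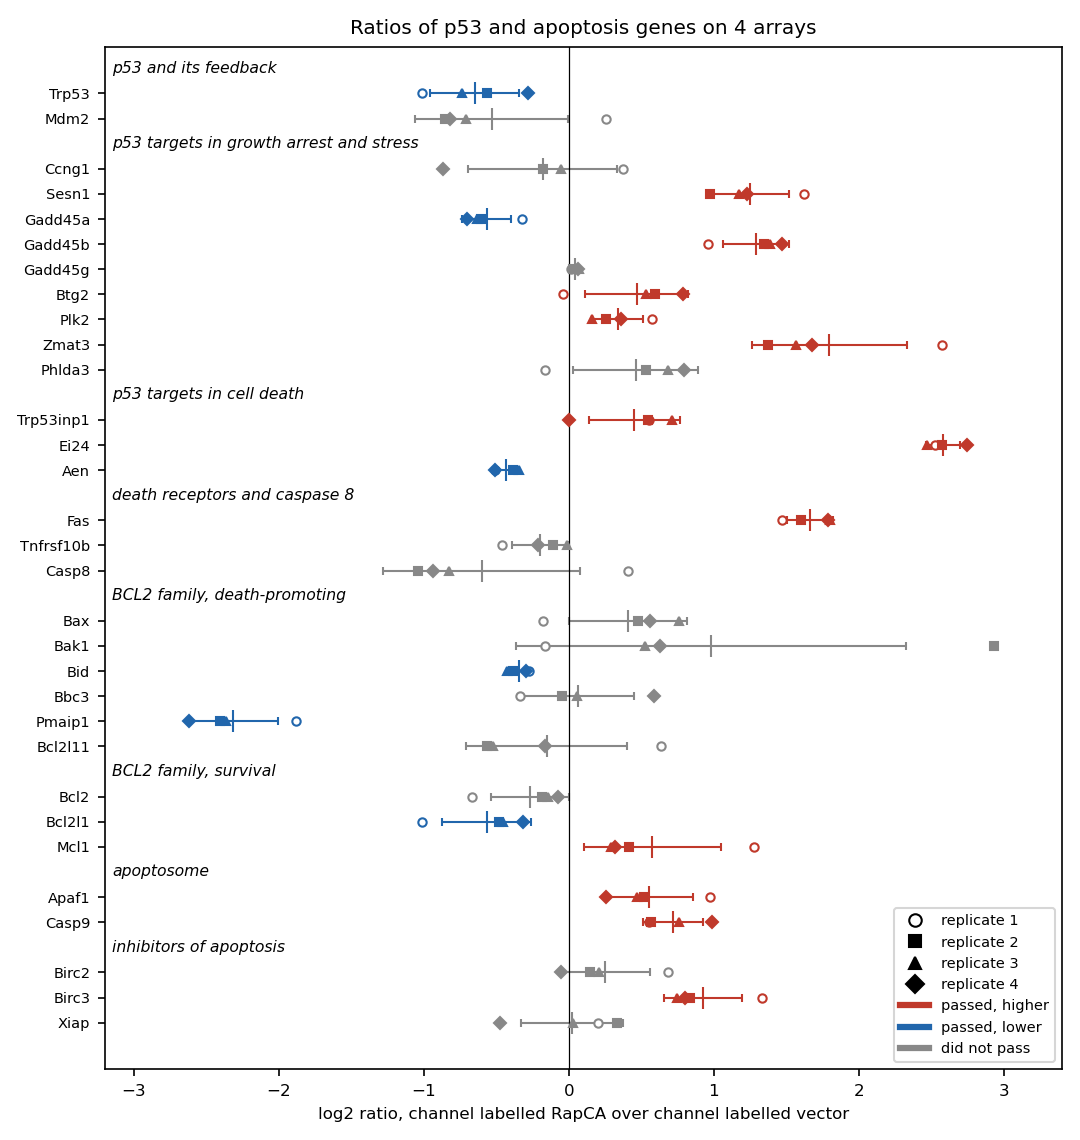
Log2 ratio, RapCA over vector as labelled, for the brightest probe of each of 31 genes, grouped by role. Points are the 4 arrays (open circle, replicate 1), ticks and bars are the mean and SD, and colour gives the limma call at an adjusted p of 0.05. Ei24 at 2.58 and Pmaip1 at -2.32 lie furthest from 0, and the open circle lies across the zero line from the other 3 points for 8 genes.

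The set as a whole moved in both directions. A gene is represented by its brightest tested probe, which for all 31 genes was above background on all 4 arrays in both channels, and is called higher or lower when limma's adjusted p over all 23497 probes is under 0.05. Of the 31 genes, 12 were higher in the RapCA channel, 6 were lower and 13 did not pass. Among all 12388 genes 53.9% passed, 28.9% higher and 24.9% lower, so the 58.1% that passed here is close to that share. The median log2 ratio was 0.25 over the 31 genes and 0.02 over all genes. A difference of at least 2-fold was found at 6 genes, 5 higher and 1 lower, against 16.6% of all genes (9.16% higher and 7.47% lower). The channel levels did not overlap at 15 genes, 10 above and 5 below, against 45.3% of all genes. Without replicate 1, 15 genes were higher and 9 were lower, beside 71.2% of all genes, 37.1% higher and 34% lower. Without replicate 2, 7 were higher and 4 lower, beside 38.9% of all genes, 21.4% higher and 17.5% lower.

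Trp53, which encodes p53, was lower in the RapCA channel. Its brightest probe had levels of 11.08, 10.62, 10.40 and 10.53 in the RapCA channel, against 12.09, 11.19, 11.13 and 10.82 in the vector channel. The ratio was below 0 on every array at -0.65 ± 0.31 (SD, n = 4; limma adjusted p = 0.00648), although the levels of the channels overlap across arrays. Without pairing the channels of an array it kept that ratio and did not pass. A second Trp53 probe had a ratio of -0.18 ± 0.29 and did not pass. Mdm2, the ligase that marks p53 for breakdown, had levels of 10.11, 10.00, 10.28 and 10.11 in the RapCA channel, against 9.86, 10.86, 10.98 and 10.93 in the vector channel. Only replicate 1 put the RapCA channel above the vector channel there. That probe had a ratio of -0.53 ± 0.53 and missed the threshold (limma adjusted p = 0.0559), and without replicate 1 it had -0.80 and passed. The dimmer Mdm2 probe did not depend on that array: its ratios were -0.53, -0.87, -0.64 and -1.07, with a mean of -0.78 ± 0.24 that passed (limma adjusted p = 0.00179) and levels that did not overlap.

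The p53 targets in growth arrest and stress included 5 higher genes of 9, with 1 lower and 3 that did not pass. Among all genes 28.9% were called higher and 24.9% lower. These shares also stand beside the small counts of each further role below. Zmat3, which encodes an RNA-binding zinc finger protein induced by p53, had levels of 13.39, 13.30, 13.38 and 13.48 in the RapCA channel, against 10.82, 11.93, 11.81 and 11.80 in the vector channel. The channels lay far apart, at a ratio of 1.80 ± 0.53, or 3.47-fold (limma adjusted p = 0.000375), and at 1.54 without replicate 1. Sesn1, a sestrin that restrains mTORC1 signalling, had levels of 11.30, 11.27, 11.49 and 11.43 in the RapCA channel, against 9.68, 10.30, 10.31 and 10.21 in the vector channel. It was 2.38-fold higher, at 1.25 ± 0.27 (limma adjusted p = 0.000294), and its other 2 probes were also higher at 0.93 ± 0.19 and 0.53 ± 0.16. Those 2 dimmer probes were above background on all 4 arrays in the RapCA channel alone. They entered the test through that channel, which favoured this direction, so they are no independent check.

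The 3 Gadd45 genes, whose small stress-induced proteins activate the p38 and JNK kinase pathways, gave 1 higher call, 1 lower call and 1 ratio that did not pass. Gadd45b had levels of 13.84, 13.80, 13.67 and 13.76 in the RapCA channel, against 12.88, 12.45, 12.28 and 12.29 in the vector channel. It was 2.44-fold higher, at 1.29 ± 0.22 (limma adjusted p = 0.000183), and a second probe gave 1.14 ± 0.16. Gadd45a, the member most closely tied to p53, had levels of 11.59, 11.45, 11.59 and 11.56 in the RapCA channel, against 11.92, 12.06, 12.23 and 12.26 in the vector channel. It was lower, without overlap, at -0.57 ± 0.17 (limma adjusted p = 0.00419). Gadd45g was bright in both channels and had a ratio of 0.04 ± 0.03, with no array beyond 0.07. That value depended on the scaling, since median centring put Gadd45g at -0.55 and called it lower.

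The remaining arrest genes had smaller ratios. Btg2, an antiproliferative gene, was higher at 0.47 ± 0.35 with its brightest probe and at 0.47 ± 0.18 with another, while its remaining probe did not pass. Plk2, a polo-like kinase, was higher at 0.34 ± 0.18 on all arrays. Both calls were lost when replicate 2, 3 or 4 was left out, at 0.43, 0.45 and 0.36 for Btg2 and at 0.36, 0.40 and 0.33 for Plk2. Phlda3, which encodes an inhibitor of Akt, had levels of 15.43, 15.39, 15.63 and 15.69 in the RapCA channel, against 15.60, 14.85, 14.95 and 14.89 in the vector channel. Its ratio of 0.46 ± 0.43 missed the threshold (limma adjusted p = 0.0546), and without replicate 1 it was 0.67 and passed. Ccng1, cyclin G1 and a p53 target with the best-matching paired element above, had -0.18 ± 0.52 with its brightest probe, which did not pass, and -0.34 ± 0.11 with the other, which did (limma adjusted p = 0.0253).

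Among p53 targets in cell death, Ei24 had the largest ratio of the set. Ei24 encodes a membrane protein of the endoplasmic reticulum that was first found as a p53-induced gene and also acts in autophagy. Its levels were 13.31, 13.01, 12.98 and 13.16 in the RapCA channel, against 10.78, 10.44, 10.51 and 10.41 in the vector channel. All 4 ratios lay between 2.47 and 2.75, with a mean of 2.58 ± 0.12, or 5.98-fold (limma adjusted p = 1.32e-05). Ei24 has 1 probe here, so no second probe checks it. Trp53inp1, a stress-induced partner of p53, was higher at 0.45 ± 0.31 and at 0.51 ± 0.26 with its other probe, although its first probe was at 0 on replicate 4. That probe did not pass without replicate 2, at 0.42, or without replicate 3, at 0.36. Aen, an exonuclease induced by p53 during apoptosis, was lower at -0.44 ± 0.09 (limma adjusted p = 0.00816), while its dimmer probe was at -0.013 ± 0.18. The Aen call was lost without replicate 2, at -0.45. Perp, a desmosome and apoptosis gene mostly of epithelia, was not well above background on any array in either channel and was not tested.

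**Figure D2:**
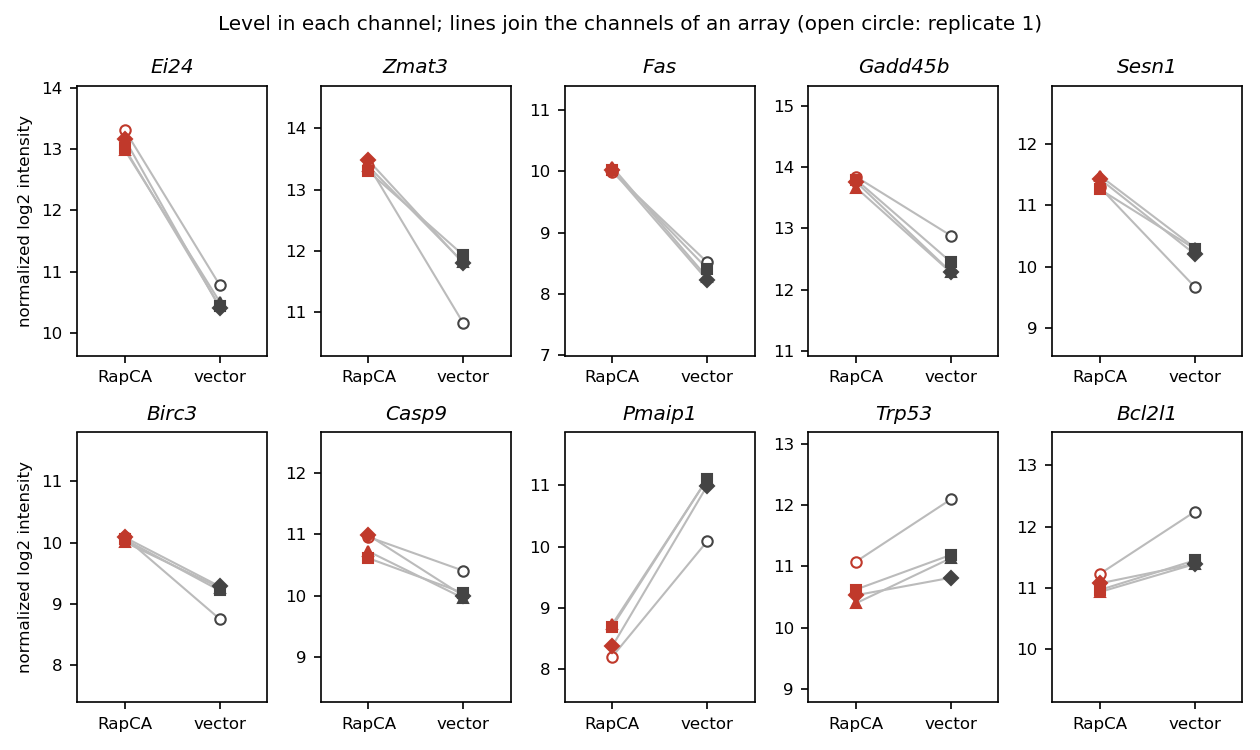
Normalized log2 intensity of the brightest probe of 10 genes in the channel labelled RapCA (red, left) and the channel labelled vector (grey, right). A line joins the channels of each array, and an open circle marks replicate 1. Every panel spans the same range of log2 units. With these probes the 7 genes from Ei24 to Casp9 are higher in the RapCA channel on every array, and Pmaip1, Trp53 and Bcl2l1 are lower on every array. A dimmer Bcl2l1 probe, not shown, was called higher.

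Of the 3 genes of the death receptor pathway, Fas was higher and 2 did not pass with their brightest probe. Fas had levels of 9.99, 10.01, 10.07 and 10.02 in the RapCA channel, against 8.52, 8.41, 8.27 and 8.23 in the vector channel. The RapCA channel varied by less than 0.1 over arrays and lay above every vector value. The ratio was 1.66 ± 0.16, or 3.17-fold (limma adjusted p = 5.01e-05), and the dimmer probe gave 0.69 ± 0.13, also passing. That dimmer Fas probe was above background on all 4 arrays in the RapCA channel alone. It entered the test through that channel, which favoured this direction. Tnfrsf10b, the mouse receptor of the ligand TRAIL, had ratios of -0.20 ± 0.19, -0.04 ± 0.18 and -0.33 ± 0.09 with 3 probes, of which the last and dimmest passed. Casp8, the initiator caspase downstream of both receptors, had levels of 10.30, 10.03, 10.36 and 10.30 in the RapCA channel, against 9.89, 11.07, 11.19 and 11.24 in the vector channel. Replicate 1 was again the array on the other side of 0, and the mean of -0.60 ± 0.68 did not pass (limma adjusted p = 0.0732). Without replicate 1 the ratio was -0.94 and passed.

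Of 6 tested BCL2 family genes that promote death, 2 were lower, none was higher and 4 did not pass. Pmaip1, which encodes the BH3-only protein Noxa and is also known as an interferon-induced gene, had levels of 8.21, 8.69, 8.73 and 8.37 in the RapCA channel, against 10.09, 11.10, 11.10 and 10.99 in the vector channel. It was 4.98-fold lower, at -2.32 ± 0.31 (limma adjusted p = 4.01e-05), and the channels lay over 1 log2 unit apart on every array. Pmaip1 has 1 probe here. Bid, which links caspase-8 to mitochondria, was lower by a small and even amount, at -0.35 ± 0.07 (limma adjusted p = 0.0203). It did not pass without replicate 2, at -0.33, or without replicate 3, at -0.32. Bbc3, which encodes Puma and has 1 probe here, had ratios of -0.34, -0.05, 0.05 and 0.59 with a mean of 0.06 ± 0.39, so that a difference was not shown in either direction. Bcl2l11, which encodes Bim, had -0.15 ± 0.56 with its brightest probe and -0.84 ± 0.24 with a dimmer one (limma adjusted p = 0.00127). The brighter of these was at 0.64 on replicate 1 and had a mean of -0.42 without it, which passed. Bik, a BH3-only gene, was above background on 1 of 4 arrays in each channel and was not tested.

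The pore-forming members did not pass with all arrays. Bax had levels of 12.66, 12.24, 12.60 and 12.18 in the RapCA channel, against 12.84, 11.76, 11.84 and 11.62 in the vector channel, and a ratio of 0.41 ± 0.41 (limma adjusted p = 0.0730). Without replicate 1 the ratio was 0.60 and passed. Bak1 had levels of 13.09, 12.66, 12.79 and 12.95 in the RapCA channel, against 13.26, 9.74, 12.27 and 12.32 in the vector channel. The vector channel of replicate 2 lay far below the rest, and the mean of 0.98 ± 1.35 did not pass (limma adjusted p = 0.108). Without replicate 2 the ratio of that Bak1 probe was 0.33 and did not pass, and without replicate 1, which leaves replicate 2 in, it was 1.36 and passed. The other Bak1 probe had 0.23 ± 0.27 and showed no such array, with 0.30 on replicate 2.

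Of the 3 survival members, Bcl2l1 was lower, Mcl1 was higher and Bcl2 did not pass with its brightest probe. Bcl2l1, which encodes Bcl-xL, had levels of 11.23, 10.97, 10.93 and 11.07 in the RapCA channel, against 12.24, 11.45, 11.39 and 11.39 in the vector channel with its brightest probe. That probe was lower at -0.57 ± 0.31 (limma adjusted p = 0.0115), but a dimmer probe was higher at 0.56 ± 0.25 (limma adjusted p = 0.00816) and the remaining probe did not pass, so the gene has no single direction here. Mcl1, a short-lived survival protein, had levels of 14.64, 14.86, 14.72 and 14.62 in the RapCA channel, against 13.36, 14.44, 14.43 and 14.30 in the vector channel. The mean of 0.58 ± 0.47 passed (limma adjusted p = 0.0315) and rested partly on replicate 1, whose ratio was 1.28 against 0.29 to 0.42 on the others. Without that array the Mcl1 ratio was 0.34 and still passed, and without replicate 2 or 4 it was 0.63 or 0.66 and did not. A second Mcl1 probe at 0.16 ± 0.20 did not pass. Bcl2, the founding survival gene, had -0.27 ± 0.27 with its brighter probe, which did not pass, and -0.58 ± 0.44 with the other, which did (limma adjusted p = 0.0257).

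Both apoptosome genes were called higher with their brightest probe, beside 28.9% of all genes, but the probes of Apaf1 differed in direction. Casp9, the initiator caspase of the mitochondrial pathway, had levels of 10.96, 10.61, 10.72 and 10.98 in the RapCA channel, against 10.40, 10.04, 9.96 and 10.00 in the vector channel. It was 1.64-fold higher without overlap, at 0.72 ± 0.20 (limma adjusted p = 0.00194). Apaf1, the scaffold that activates caspase-9, was higher with its brightest probe at 0.56 ± 0.30 (limma adjusted p = 0.0123) and lower with another at -0.52 ± 0.34 (limma adjusted p = 0.0210). The remaining Apaf1 probe had -0.17 ± 0.10 and did not pass, so Apaf1 has no single direction here. The call of the brightest was lost without replicate 2, at 0.57.

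Of the 3 inhibitors of apoptosis Birc3 was higher and 2 did not pass. Birc3, which encodes cIAP2 and is known as an NF-kB target, had levels of 10.08, 10.05, 10.01 and 10.09 in the RapCA channel, against 8.76, 9.22, 9.27 and 9.29 in the vector channel. It was 1.90-fold higher at 0.93 ± 0.27 (limma adjusted p = 0.00104), and 0.79 without replicate 1. Birc2, its neighbour in the family and the gene for cIAP1, had a ratio of 0.25 ± 0.31 and did not pass. The 3 probes of Xiap, the direct caspase inhibitor, had ratios of 0.02 ± 0.35, 0.02 ± 0.33 and -0.21 ± 0.34, none passing. The Xiap ratio of replicate 4 was -0.47, below the 0.03 to 0.33 of the other arrays.

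Probes of the same gene did not always give the same call. Of 17 genes with at least 2 tested probes, 4 (Sesn1, Gadd45b, Trp53inp1 and Fas) were called higher by every probe, and none was called lower by every probe. The dimmer probes of Sesn1 and Fas entered the test through the RapCA channel alone, which favoured a higher call. Every probe of Gadd45b and Trp53inp1 was above background on all 4 arrays in both channels. At 11 genes some probes passed and others did not, and 2 of these 11, Bcl2l1 and Apaf1, were called higher by 1 probe and lower by another. Calls in both directions occurred at 2.27% of all genes with several tested probes. Ratios of both signs occurred at 3 of the 17 genes, against 23.4% of all such genes. Over the 54 tested probes 19 were higher and 12 lower, against 49.6% of all probes, 26.4% higher and 23.2% lower. Which transcripts the probes match is not known here. Another 14 genes, Ei24, Zmat3, Pmaip1, Casp9 and Birc3 among them, had 1 tested probe, so no second probe checks them.

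**Figure D3:**
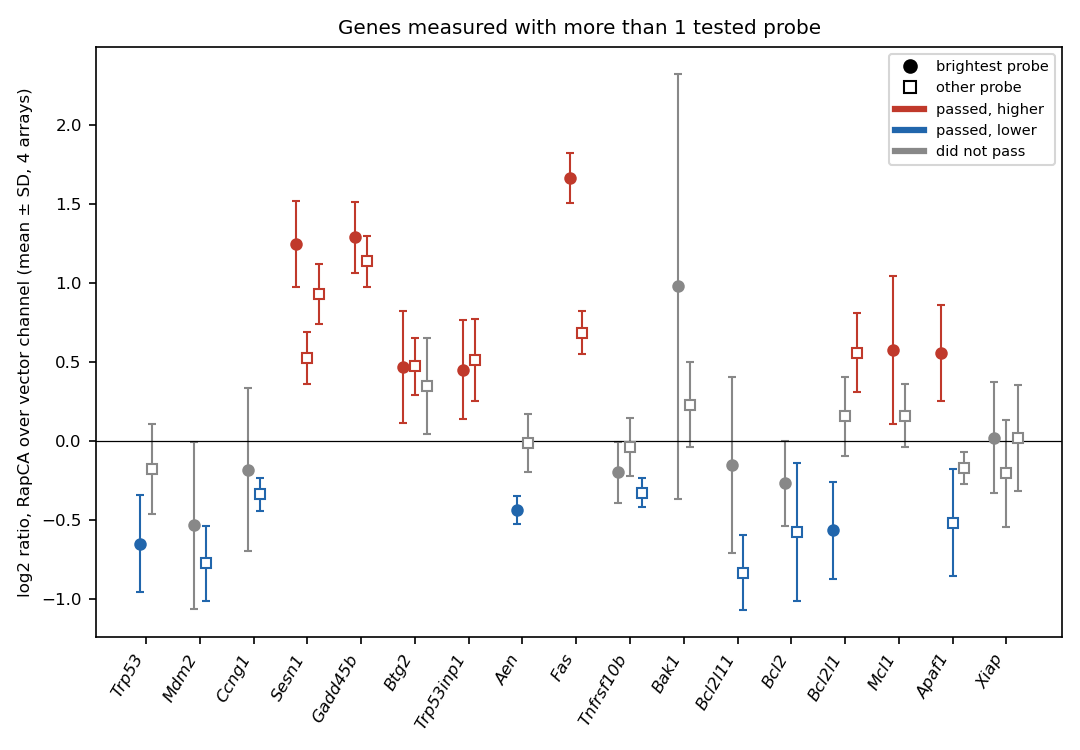
Log2 ratio of every tested probe (mean ± SD over 4 arrays) for the 17 genes with more than 1. Filled circles are the brightest probe of a gene, open squares the others, and colour gives the limma call. For Bcl2l1 and Apaf1 a red and a blue symbol stand on opposite sides of 0.

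Other genes of the pathway were read from 3 lists. Of 21 tested p53 targets outside the set, 2 were higher and 9 lower, with a median log2 ratio of -0.29, against 12 higher and 6 lower of 31 and a median of 0.25 in the set itself. The difference between these lists was not tested. Among all genes 28.9% were called higher and 24.9% lower. Pidd1, a scaffold for caspase-2, was lower at -2.05 ± 0.10 (limma adjusted p = 2.20e-05) with its brightest probe, while 1 of its other 2 probes did not pass. Pml, which encodes the organizer of PML nuclear bodies and is also interferon-induced, was lower at -1.44 ± 0.16. Gtse1, a cell cycle gene whose protein binds p53, was lower at -1.28 ± 0.09, and Ephx1, an epoxide hydrolase, was higher at 1.23 ± 0.27. Cdkn1a, which encodes the cell cycle inhibitor p21 and is the best known p53 target, was lower at -0.72 ± 0.32 (limma adjusted p = 0.00436). Cdkn1a is named here after its value was seen.

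Of 28 tested apoptosis genes outside the set, 5 were higher and 8 lower, with a median of -0.10. Bmf, a BH3-only gene, had the smallest p and was higher at 1.93 ± 0.35, although its other probe did not pass. Birc5, which encodes survivin and is mostly expressed in dividing cells, was lower at -1.24 ± 0.28. The DNA-cutting nuclease gene Dffb and the mitochondrial flavoprotein gene Aifm1 were lower at -0.80 ± 0.09 and -0.91 ± 0.47. A dimmer Aifm1 probe had -0.28 ± 0.46 and did not pass. Of 22 regulators and relatives of p53, 5 were higher and 7 lower, with a median of -0.10. The checkpoint kinase genes Atr and Chek1 were lower at -1.19 ± 0.45 and -1.11 ± 0.45. Sirt1, a deacetylase that acts on p53, was lower at -1.06 ± 0.23. Trp63, a relative of Trp53, was well above background in the RapCA channel alone, at a level of 7.37 there and 6.10 in the vector channel. Trp63 entered the test through the RapCA channel alone, so its direction was fixed by that filter, and its difference of at least 2.38-fold, against the higher of its own value and the lowest level above background on each array, is a description. The shares that passed, 52.4%, 46.4% and 54.5%, are near the 53.9% of all genes, of which 28.9% were higher and 24.9% lower.

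**Figure D4:**
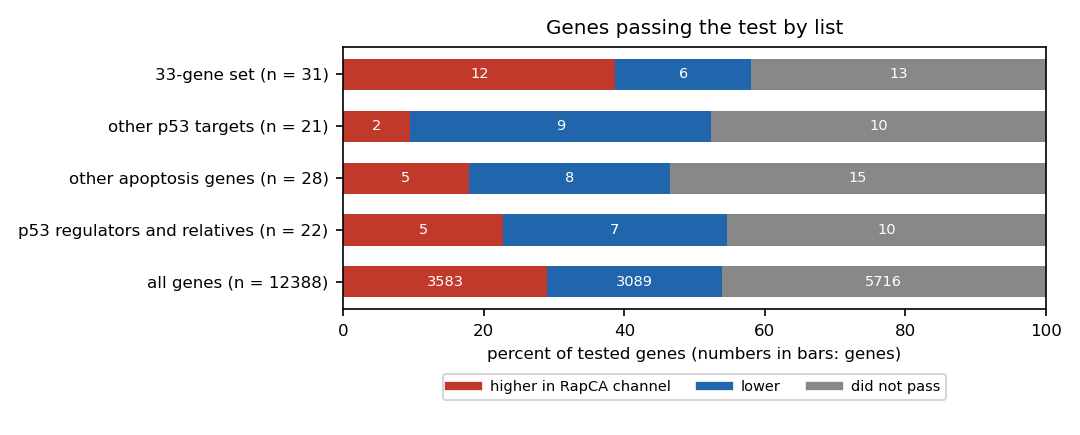
Percent of tested genes called higher (red), lower (blue) or not passing (grey) in the 33-gene set, in 3 further lists of the pathway and among all genes. Numbers in the bars are genes: 12 higher and 6 lower in the set, 2 higher and 9 lower among other p53 targets, and 3583 higher and 3089 lower among all genes.

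The balance of higher and lower calls in the set depended on how the channels were scaled. With median centring in place of an intensity-dependent fit, 4 of the 31 genes were higher and 5 lower, against 32.4% of all genes, 12.4% higher and 20% lower, and the share of higher among called genes was 44.4% in place of 66.7%. Median centring moved the median of all genes to -0.17, against 0.02 with the intensity-dependent fit, and the median of the set to -0.14, so relative to all genes the set stood at 0.03 in place of 0.23. With the scanner software's own ratios 9 genes were higher and 6 lower, against 50.7% of all genes, 26.9% higher and 23.8% lower. With median centring 10 of the 18 called genes kept their direction and did not pass. These were Sesn1 at 1.06, Gadd45a at -0.81, Btg2 at 0.31, Plk2 at 0.093, Trp53inp1 at 0.28, Bid at -0.61, Mcl1 at 0.089, Apaf1 at 0.41, Casp9 at 0.54 and Birc3 at 0.77. Ei24, Zmat3, Fas, Gadd45b and Pmaip1 passed in the same direction under each of the 16 alternatives that gave them a ratio. Their lowest and highest ratios over these were 2.33 and 2.67 for Ei24, 1.51 and 1.94 for Zmat3, 1.18 and 1.91 for Fas, 0.93 and 1.40 for Gadd45b, and -2.68 and -2.22 for Pmaip1.

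**Figure D5:**
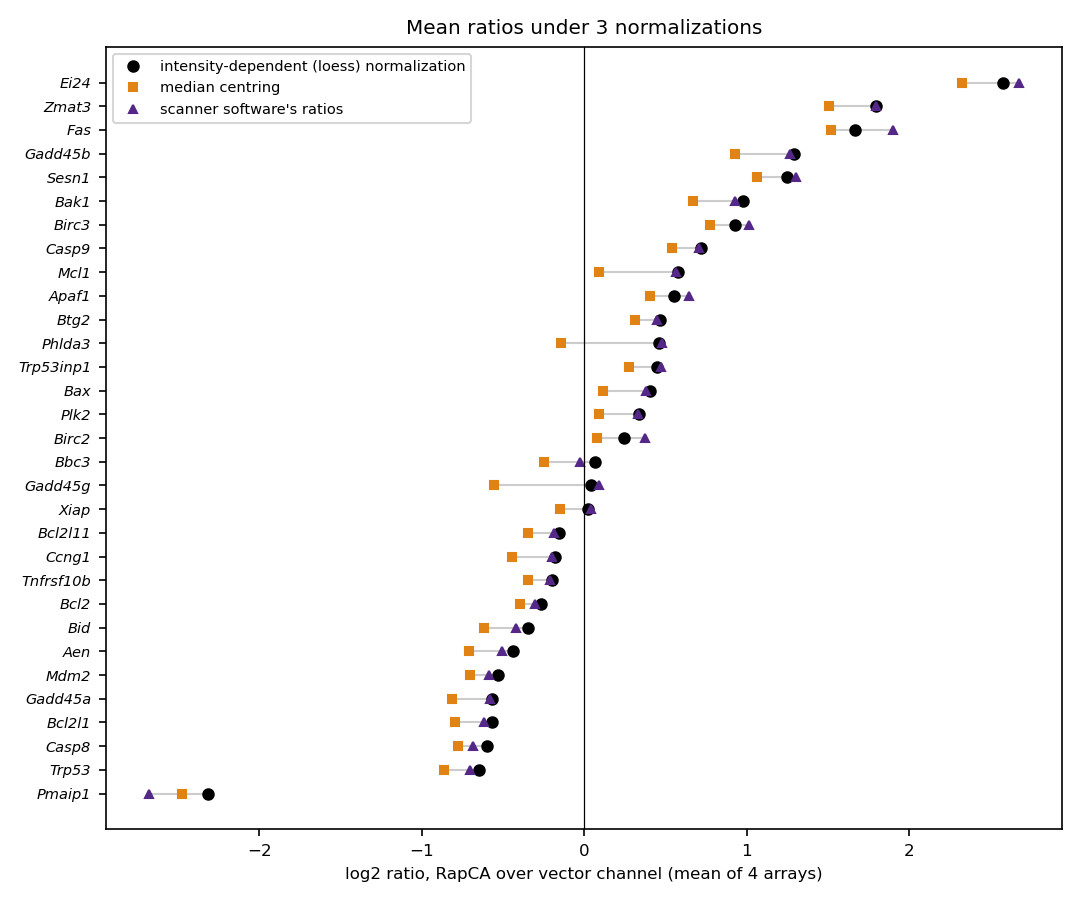
Mean log2 ratio of 31 genes, ordered by size, under intensity-dependent normalization (circles), median centring (squares) and the scanner software's ratios (triangles). Median centring lies lower than the intensity-dependent fit for every gene shown, most for the bright genes Gadd45g and Phlda3, and Ei24, Zmat3, Fas and Pmaip1 stay far from 0 in all 3.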

How the data were processed

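Each Agilent array received a pair of total RNAs, 1 in each dye, per the labels. The authors deposited the scanner output of Feature Extraction, which the headers give as version 10.7.3.1 and the submitters' processing notes as 10.9. The deposited intensity values are median pixel brightness of spot and local background, not normalized, per the file headers. Feature Extraction had also subtracted background and normalized dyes to give log10 ratios (Cy5 over Cy3), per the file headers. The deposited values of the whole series equal these within 5e-05 over 40929 probes with 1 spot, and have a median of 0 on each array.

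Background was corrected with normexp (offset 50). Ratios, log2 of Cy3 over Cy5, were loess-normalized array by array, giving control spots no weight. No spot was saturated, outlier spots (94 to 137 an array) were dropped, and the rest were averaged by probe. A probe was kept when either channel was well above background on all 4 arrays, which held for 23497 of 41174. Levels are channel values after loess and Aquantile. Between 57.7% and 62.9% of probes were well above background in Cy3, and 51.3% to 61.9% in Cy5. The number of arrays limits the precision. Symbols came from RefSeq by accession for 64.8% of probes. The files name another build than that table, so no probe is placed on a gene. Mean ratios were tested against 0 with limma (lmFit, eBayes; Benjamini-Hochberg over all probes, at least 3 arrays). The array pairs the channels; a fit without this pairing was an alternative. The script was tested on simulated data. Named are Rap1a, all 33 genes and up to 4 called genes with the smallest p in each of 3 further lists, and Cdkn1a. The genes, lists and tests were chosen with earlier results of these data known. Alternatives covered background, normalization, filters, outlier spots, variance model, array weights, pairing, probes, threshold and each array left out. Analysis used R 4.3.3 with data.table (version 1.17.8) and limma 3.58.1, Python 3.11.15, matplotlib 3.10.9 and pandas 2.3.3.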

Additional observations from a re-analysis of the deposited data

Results flagged for a closer look

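On 4 arrays, 44 sets of ratios were examined for an array far from the others, by the gap to its nearest neighbour as a share of the range, with Dixon's critical value as the limit. Chance passes this limit for about 1 in 20 groups, and 4 of the 44 passed it. The shares were 0.868 for Mdm2, 0.854 for Casp8, 0.871 for Mcl1 and 0.847 for Birc3. In each of these 4 genes the array apart was replicate 1, with ratios of 0.25, 0.41, 1.28 and 1.33 in that order. Mdm2 and Casp8 did not pass with all 4 arrays and passed without that one, and Mcl1 and Birc3 passed with and without it.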

How the results depend on the processing

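Of the 18 genes of the set that passed, 5 kept their call under every alternative tried. Over the 31 genes, 424 of the alternative ratios stayed on their side of the threshold with the same sign, 40 lost a call, 19 gained one and 13 changed sign, of which 10 passed neither before nor after. With median centring 9 genes passed (4 higher), 15 of 54 probes of the set and 6546 of all probes passed, of which 40.1% were higher against 53.3%, the median of the set was -0.14, and Gadd45g had -0.55, Phlda3 -0.14, Bbc3 -0.25 and Xiap -0.15. Bbc3 had -0.026 with the scanner ratios and with the series table. With the mean over the probes of a gene the median was 0.064, Bcl2l1 had 0.049, Apaf1 -0.045 and Xiap -0.056, since their probes differ in sign. With no filter on dim probes the median was 0.064. Array quality weights called 26 genes of the set, 16 higher and 10 lower, 55 genes of the wider lists and 17694 probes. Requiring at least 2-fold left 6 genes (5 higher, 1 lower), 7 probes of the set, 10 genes of the wider lists and 3092 probes. Without the pairing of channels by array (no replicate block) 14 genes passed, 9 higher and 5 lower, beside 10248 of 23497 probes in place of 11654, and Trp53, Btg2, Trp53inp1 and Mcl1 lost their calls. Leaving out each array in turn gave 11 to 24 genes (7 to 15 higher, 4 to 9 lower), 17 to 41 probes of the set, 24 to 47 genes of the wider lists, 7912 to 15739 probes, a median of 0.20 to 0.33 and a Rap1a ratio of -1.27 to -0.93. Over the same 4 fits Ccng1 ranged over -0.37 to 0.048, Bbc3 over -0.11 to 0.20 and Xiap over -0.082 to 0.19, none passing. The lowest counts of the set came without replicate 2 and the highest without replicate 1. The cause of these changes was not tested.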
